A study of Mus musculus with 8 samples.

Results

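The Hedgehog pathway genes Shh, Ihh, Dhh, Ptch1, Smo, Gli1, Gli2, Gli3 and Hhip were described across the annotated cell types of the petrous temporal bone (PTB) and of the cerebellar paraflocculus/flocculus (PF/F) of mice at postnatal day 5.5. The genes were taken by symbol, and all 9 were found among the 32285 genes of the count tables. Single-nucleus RNA sequencing was done on 8 libraries, each from nuclei of 5 pooled mice, with 2 libraries per tissue and genotype. The genotypes were wild type (WT) and Tbx1+/-, mice heterozygous for loss of the T-box transcription factor gene Tbx1. The study describes 2 batches of animals, and the labels number the libraries 1 and 2 without tying these numbers to a batch. The annotation covered 31076 PTB nuclei in 15 types and 48237 PF/F nuclei in 16 types. In the PTB these are the connective tissue, chondrocyte, osteoblast and osteoclast part of the nuclei that the paper kept. Immune cells, neurons and other types that the paper found in the bone are not among them. Levels were summed over the nuclei of a type in a library and are given as UMIs (unique molecules counted) per 1000000 UMIs of that type, abbreviated CPM, as mean ± SD over 4 libraries (2 WT, 2 Tbx1+/-). In the PTB, types were named CT1 to CT4 (connective tissue), CP1 to CP6 (chondrocyte progenitors), matured chondrocytes, hypertrophic chondrocyte/osteoblast, osteoblasts, matured osteoblasts/osteocytes and osteoclasts.

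Hedgehog proteins are secreted ligands that bind the receptor Ptch1 and thereby free the membrane protein Smo, which leads the Gli transcription factors to act as activators. Gli1, Ptch1 and Hhip are widely used readouts because their transcription is raised by the pathway, and Ptch1 and Hhip also bind and restrain the ligand. In growing cartilage Ihh is made by chondrocytes that are about to enlarge and acts in a feedback loop with parathyroid hormone-related protein. In the postnatal cerebellum Shh from Purkinje cells drives the division of granule neuron progenitors (GNPs), and Dhh is known from Schwann cells and the gonads.

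The 9 genes lie on 7 chromosomes of the GRCm38 build (GENCODE vM21). The ligand genes are short: Shh spans chr5:28456815-28467256, Ihh chr1:74945315-74951672 and Dhh chr15:98891152-98898540. Ptch1 spans chr13:63508328-63573598, Smo chr6:29735503-29761365 and Hhip chr8:79965851-80058006. The Gli genes are Gli1 at chr10:127329882-127341974, Gli2 at chr1:118834132-119053619 and Gli3 at chr13:15463235-15730026. Intronic reads were counted and these spans run from 6358 bases (Ihh) to 266792 bases (Gli3), so levels were compared across types for a given gene and never between genes. RefSeq promoter windows (GRCm38.p6, 250 bases before to 50 bases after a gene's start) were found for 7 of the 9 genes, all but Shh and Gli1. The start used for the Ptch1 window lies inside the GENCODE span given above, not at its end. Windows are shown for Ptch1 (chr13:63565686-63565985, minus strand) and Gli2 (chr1:119053570-119053869, minus strand), whose levels followed each other across PF/F types. Capitals mark GGGTGGT, the core of the Gli binding motif TGGGTGGTC, on either strand.
Ptch1: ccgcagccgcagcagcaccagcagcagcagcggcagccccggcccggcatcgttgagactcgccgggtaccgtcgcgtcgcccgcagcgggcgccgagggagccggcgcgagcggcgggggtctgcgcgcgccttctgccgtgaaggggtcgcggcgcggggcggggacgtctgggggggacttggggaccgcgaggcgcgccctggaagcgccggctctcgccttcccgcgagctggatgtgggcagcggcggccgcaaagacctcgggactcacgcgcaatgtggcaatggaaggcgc
Gli2: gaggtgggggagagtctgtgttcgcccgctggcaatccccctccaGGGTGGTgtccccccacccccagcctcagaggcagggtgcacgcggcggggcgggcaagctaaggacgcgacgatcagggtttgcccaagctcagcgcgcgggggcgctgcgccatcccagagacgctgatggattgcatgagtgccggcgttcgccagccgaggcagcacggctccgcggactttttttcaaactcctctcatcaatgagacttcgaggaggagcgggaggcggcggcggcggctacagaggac
The core was found in the Gli2 window and in no other of the 7, and in 4.61% of 32851 mouse promoter windows. The full motif, which contains the core, was in 0.253% of the windows and in none of the 7. A match describes letters in a window, and the lack of a match says nothing of binding.

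Total counts ran from 44713226 to 88677309 UMIs per library, and median UMIs of annotated nuclei ran from 2610 to 4758. At most 0.503% of a library's annotated barcodes were shared with another library. Tbx1, the targeted gene, was measured at 38.9 and 39.4 CPM in the WT PTB libraries and at 26.3 and 35.7 CPM in the Tbx1+/- libraries. The genotypes did not overlap, but the second Tbx1+/- library lay near WT, so the check of the label was weak. The paper reports a significant reduction of Tbx1 in the main PTB cell populations. Its methods compare nuclei of the genotypes within each cell type, on counts corrected for ambient RNA. Here uncorrected counts were summed over all annotated PTB nuclei, with 2 libraries per genotype, so the tests are unlike. The log2 difference of these sums was -0.34 (SE 0.17). In edgeR's quasi-likelihood test its unadjusted p was 0.0951 and its adjusted p 1.00. In PF/F Tbx1 was at or below 0.265 CPM in every library, so the genotype label could not be checked there. The labels of the types on which the ligand results rest were set against markers. Purkinje cell markers summed to 9071 CPM in Purkinje cells against at most 610 CPM in any other PF/F type. Chondrocyte markers summed to 8014 CPM in matured chondrocytes against at most 3715 CPM in any other PTB type (CP5). Acan and Matn3, cartilage matrix genes, were at 1333 and 247 CPM there against at most 234 and 9.27 CPM elsewhere (both CP2), and Col10a1 was at 192 CPM. Col10a1, which marks hypertrophic cartilage, was at 42.4 CPM in the hypertrophic chondrocyte/osteoblast type, where Mmp13 and Spp1 reached 1923 and 4827 CPM. Osteoblast markers summed to 6670 CPM in matured chondrocytes. Erythroid markers averaged 2882 CPM there and ranged from 677 to 9197 CPM over the libraries, and the part of both lists in the levels of this type was not tested.

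Among the ligands, Shh was carried in PF/F by Purkinje cells. Purkinje cells held 43 Shh UMIs in the first WT library (21.7 CPM), 49 in the first Tbx1+/- library (28.3 CPM), 43 in the second WT library (17.2 CPM) and 50 in the second Tbx1+/- library (15.4 CPM). The genotypes overlapped, and the level averaged 20.6 ± 5.74 CPM (SD, n = 4). Of 266 Shh UMIs in annotated PF/F nuclei, 185 lay in Purkinje cells, which made up 2.69% of the nuclei. Per library this share was 69.5% ± 2.32 (SD, n = 4), against 5.42% of all UMIs. The share was 39.7% when the 8% of nuclei with the most UMIs were left out and 84.8% among nuclei with at least 2000 genes. GNPs, differentiated granule neurons and astroglia were at 0.584 ± 0.334, 0.407 ± 0.211 and 0.462 ± 0.248 CPM, and granule neurons were above GNPs in 2 of 4 libraries. GABA interneurons averaged 2.66 ± 3.46 CPM on 5 UMIs and pericytes 5.33 CPM on 1 UMI, so neither level could be resolved.

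A Shh UMI was seen in 166 of 1299 Purkinje nuclei (12.8%, median 6887 UMIs) and in 24 of 18286 differentiated granule neurons (0.131%, median 2973 UMIs), a type not known to make Shh. With every nucleus thinned to 2000 UMIs, which left out 7 Purkinje nuclei and 2637 granule neurons, the shares were 4.02% and 0.0895%. Ihh and Dhh were near the counting limit throughout PF/F, with 26 and 10 UMIs in all 48237 annotated nuclei.

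**Figure D1:**
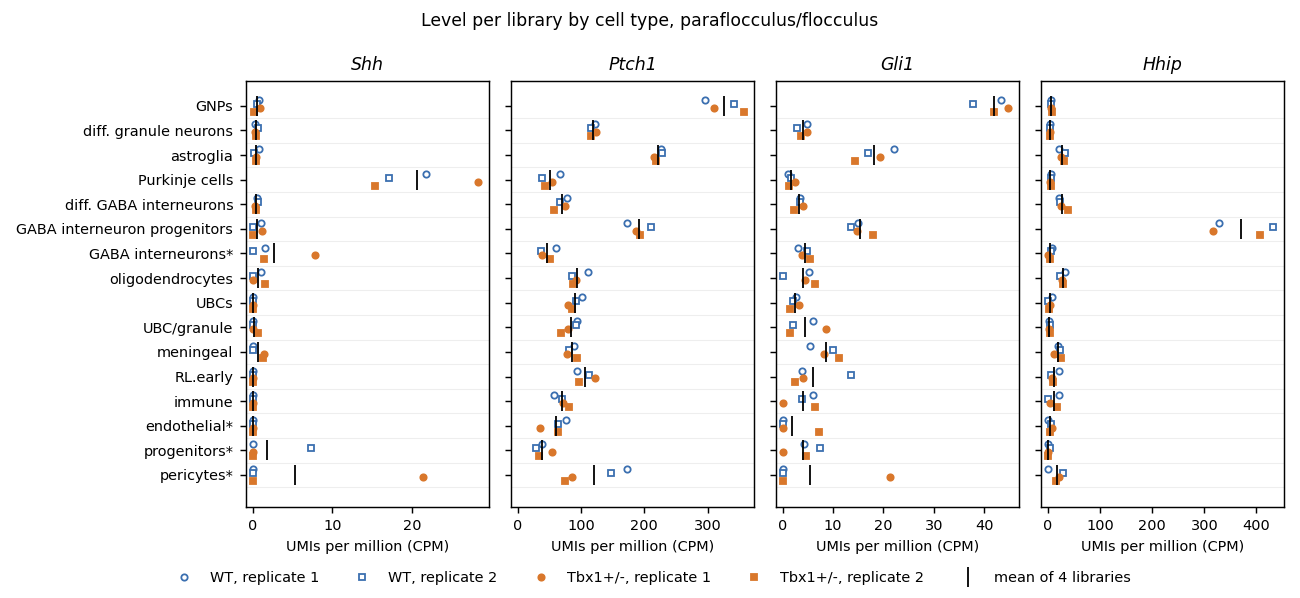
Level of Shh, Ptch1, Gli1 and Hhip (horizontal axes, CPM) in each annotated PF/F cell type, with 1 point per library (blue open WT, orange filled Tbx1+/-, circles replicate 1, squares replicate 2) and a black bar at the mean of 4 libraries. Types with an asterisk had a library with fewer than 50 nuclei. The Shh points of Purkinje cells lie between 15.4 and 28.3 CPM, those of Gli1 are highest in GNPs (37.8 to 44.8 CPM), and those of Hhip in GABA interneuron progenitors (317 to 432 CPM).

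In the PTB, Ihh was highest in matured chondrocytes. The first WT library held 30 Ihh UMIs in this type (62.6 CPM), the first Tbx1+/- library 10 (59.9 CPM), the second WT library 12 (29.1 CPM) and the second Tbx1+/- library 44 (51.4 CPM). The genotypes overlapped, and the lowest library was a WT library. The mean of 50.8 ± 15.2 CPM (SD, n = 4) stood 10.9 times above the next type, CP1, and was higher in 4 of 4 libraries. The first Tbx1+/- library had only 48 nuclei of this type. Restricted to nuclei with at least 2000 genes, the mean fell to 32.6 CPM. A UMI was seen in 60 of 587 matured chondrocytes (10.2%, median 2572 UMIs) and in 14 of 1559 osteoclasts (0.898%, median 5788 UMIs), which are not known to make Ihh. Thinned to 2000 UMIs (144 matured chondrocytes and 37 osteoclasts left out), the shares were 7.67% and 0.329%.

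Osteoclasts, used as the background type for Ihh, were at 1.35 ± 1.03 CPM, and CT3 was lower, at 0.652 ± 1.30 CPM. CP1 (4.67 ± 1.57 CPM), osteoblasts (4.02 ± 1.47 CPM), CT4 (3.76 ± 1.55 CPM) and CP2 (2.30 ± 1.49 CPM) were above osteoclasts in 4 of 4 libraries, by as little as 0.0508 CPM for CT4. Matured osteoblasts/osteocytes (3.85 ± 2.66 CPM) and the hypertrophic chondrocyte/osteoblast type (1.94 ± 1.476 CPM) were above osteoclasts in 3 of 4 libraries. Matured chondrocytes were 1.89% of annotated PTB nuclei and held 96 of the 521 Ihh UMIs in them (18.7% ± 10.8 per library, against 1.30% of all UMIs). Among nuclei with at least 2000 genes their share of Ihh UMIs was 9.14%. Osteoblasts held more Ihh UMIs, 124, but their share of 25.4% ± 6.52 lay close to their 20.9% share of all UMIs. Dhh (230 UMIs) ranged only from 0.737 to 2.32 CPM over the 15 types, no neighbours in that order were apart in all 4 libraries, and osteoclasts were at 1.36 CPM. Shh had 32 UMIs in all annotated PTB nuclei.

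**Figure D2:**
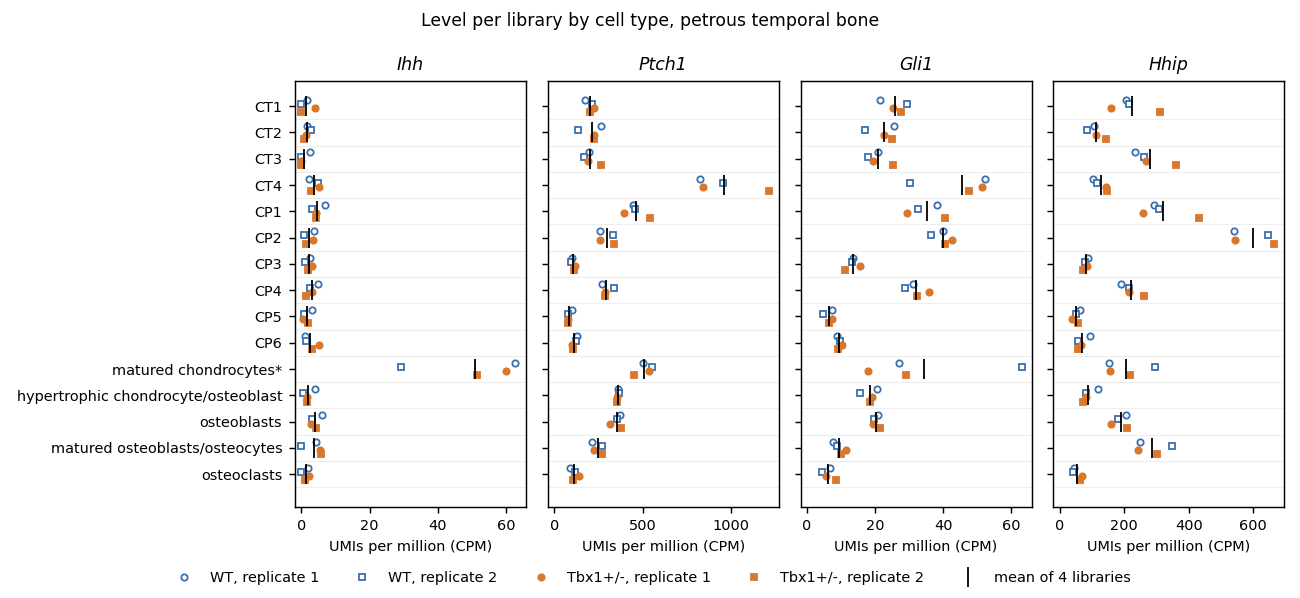
Level of Ihh, Ptch1, Gli1 and Hhip (horizontal axes, CPM) in each annotated PTB cell type, drawn as for PF/F with 1 point per library and a black bar at the mean. The 4 Ihh points of matured chondrocytes lie between 29.1 and 62.6 CPM and every other type lies below 7 CPM. Ptch1 and Gli1 peak in CT4 and Hhip in CP2.

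Ptch1, Gli1 and Gli2 of PF/F were highest in GNPs, the dividing precursors of granule neurons. Ptch1 in GNPs was 296, 310, 342 and 357 CPM in the first WT, first Tbx1+/-, second WT and second Tbx1+/- libraries. Astroglia followed at 222 ± 6.53 CPM and GABA interneuron progenitors at 191 ± 15.4 CPM, each step apart in 4 of 4 libraries. Gli1, a transcriptional target and activator of the pathway, was 43.4, 44.8, 37.8 and 42.0 CPM in GNPs, 2.31 times the 18.2 ± 3.33 CPM of astroglia. GABA interneuron progenitors (15.2 ± 1.89 CPM) did not differ from astroglia beyond the spread, since they were lower in 3 of 4 libraries. Gli1 was at 3.996 ± 0.957 CPM in differentiated granule neurons and 1.54 ± 0.568 CPM in Purkinje cells. A Gli1 UMI was seen in 10.9% of GNPs (median 2555 UMIs) and 1.08% of Purkinje nuclei, and in 8.14% and 0.232% after thinning to 2000 UMIs (2244 GNPs and 7 Purkinje nuclei left out).

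The Gli genes did not share a leading type. Gli2, the main activator, reached 535 ± 36.0 CPM in GNPs, 239 ± 25.6 CPM in GABA interneuron progenitors and 168 ± 7.02 CPM in astroglia, apart in 4 of 4 libraries at each step. Gli3, the main repressor, was highest in astroglia (232 ± 30.6 CPM), and GABA interneuron progenitors (221 ± 31.1 CPM), meningeal cells (208 ± 30.7 CPM) and early rhombic lip cells (175 ± 15.8 CPM) came before GNPs at 111 ± 16.4 CPM. Smo was at 120 ± 13.6 CPM in GNPs and 119 ± 9.71 CPM in meningeal cells, which did not differ beyond their spread.

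Hhip, the decoy receptor, set GABA interneuron progenitors apart. They were at 328 and 432 CPM in the WT libraries and 317 and 406 CPM in the Tbx1+/- libraries, so the genotypes overlapped. The next type, oligodendrocytes at 28.3 ± 3.68 CPM, was 13.1 times lower. These progenitors were 4.25% of the nuclei and held 2404 of 4322 Hhip UMIs (56.1% ± 3.77 per library, SD, n = 4). GNPs, where Ptch1 and Gli1 were highest, were at 6.31 ± 1.25 CPM.

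**Figure D3:**
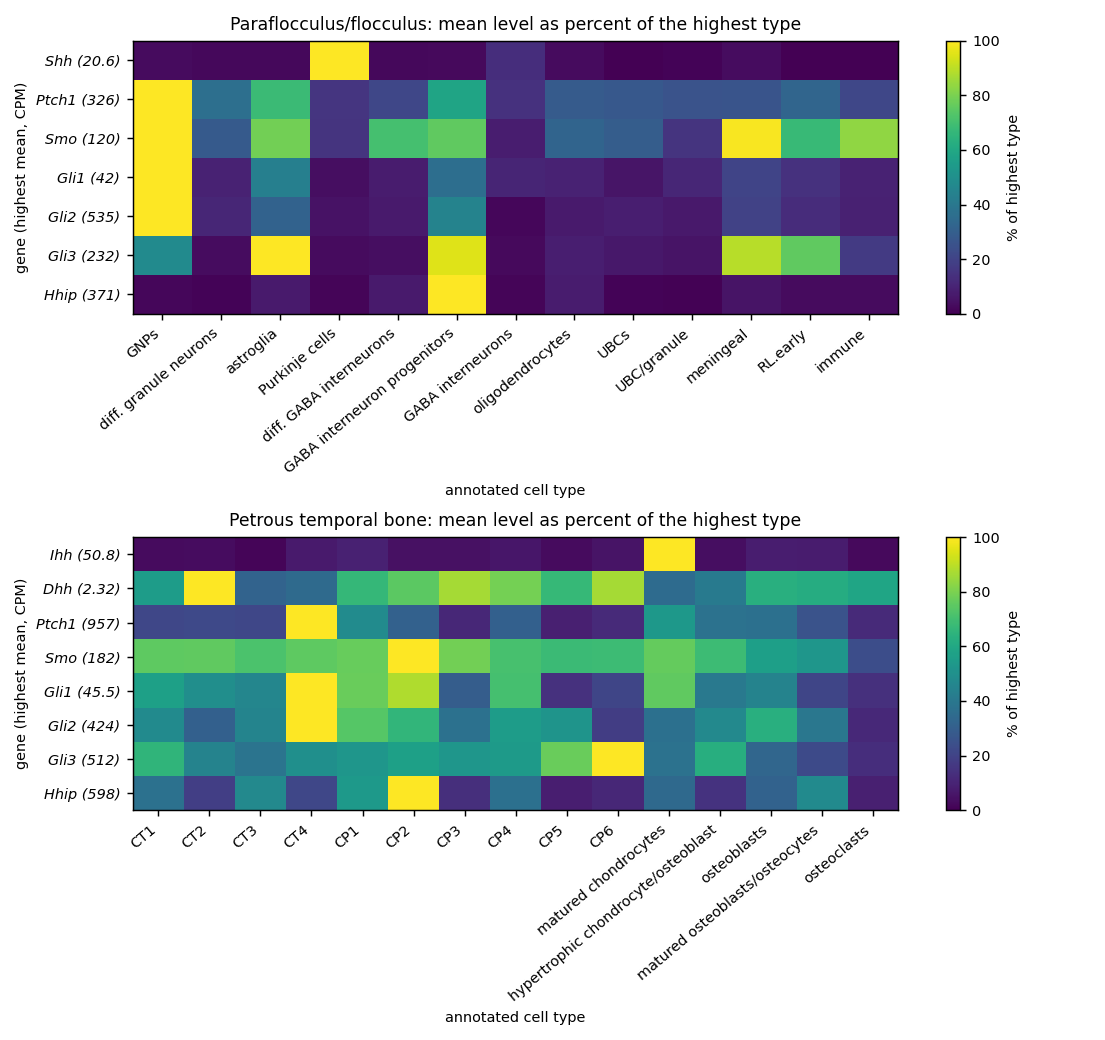
Mean level over 4 libraries of each gene (rows) in each annotated type (columns) as a percent of that gene's highest type in the tissue, whose level in CPM stands in parentheses. Genes with under 100 UMIs in a tissue and PF/F types with a library under 45 nuclei were left out. Ptch1, Smo, Gli1 and Gli2 are brightest in GNPs, Gli3 in astroglia and Hhip in GABA interneuron progenitors. In the PTB, Ihh has a single bright column and Dhh has several, with CT2 followed closely by CP6 and CP3.

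In the PTB, Ptch1 and Gli1 were highest in CT4, where Ihh was at 3.76 CPM. Ptch1 in CT4 was 823 and 953 CPM in the WT libraries and 842 and 1212 CPM in the Tbx1+/- libraries, 957 ± 179 CPM on average. Matured chondrocytes, which held Ihh, followed at 509 ± 43.5 CPM and CP1 at 461 ± 60.8 CPM, and these did not differ beyond their spread. Ptch1 was lowest in CP5 (82.6 ± 10.5 CPM), below the 114 ± 20.9 CPM of osteoclasts in 3 of 4 libraries. Gli1 was 45.5 ± 10.3 CPM in CT4, 40.0 ± 2.63 CPM in CP2, 35.2 ± 5.14 CPM in CP1 and 34.4 ± 19.8 CPM in matured chondrocytes. CT4 was above CP2 in 3 of 4 libraries. In matured chondrocytes the second WT library, at 63.1 CPM, stood above the others, which ran from 18.0 to 29.2 CPM. Gli1 in CP5 (6.42 ± 1.29 CPM) was close to osteoclasts (6.23 ± 1.79 CPM).

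CT4 also carried summed osteoblast markers at 7304 CPM and osteoclast markers at 2068 CPM, against at most 1123 CPM for the latter in any other type but osteoclasts themselves. The part of such mixed signal in the Ptch1 level was not tested. Gli2 was also highest in CT4, at 424 ± 97.2 CPM against 312 ± 56.4 CPM in CP1 (higher in CT4 in 4 of 4 libraries), while matured chondrocytes were at 156 ± 78.7 CPM.

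Gli3 and Hhip peaked elsewhere in the PTB. Gli3 was 512 ± 34.9 CPM in CP6 and 395 ± 8.24 CPM in CP5, and lowest in matured osteoblasts/osteocytes (114 ± 8.13 CPM) and osteoclasts (67.0 ± 7.89 CPM). Neuron markers summed to 1675 CPM in CP6, the highest of any PTB type, and their part in the Gli3 level was not tested. Hhip was 598 ± 66.8 CPM in CP2, with 539 and 645 CPM in the WT libraries and 542 and 666 CPM in the Tbx1+/- libraries, 1.86 times the 322 ± 75.7 CPM of CP1. Among annotated PTB nuclei, CP2 held 30.9% of the Hhip UMIs and 11.5% of the nuclei. Smo had the smallest ratio of highest to lowest type among Ptch1, Smo, Hhip and the Gli genes, from 182 ± 29.6 CPM in CP2 to 43.2 ± 5.15 CPM in osteoclasts.

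When the types were ordered by the level of a gene, most neighbours were not apart in all 4 libraries. Between 3 and 7 of 14 neighbouring pairs were apart in the PTB for Ptch1, Smo, Hhip and the Gli genes, and between 3 and 5 of 15 in PF/F. Across types, levels of Ptch1, Gli1 and Gli2 followed each other, and those of Gli3 did so less in the PTB. On log2(mean CPM + 1), Pearson's r of Ptch1 with Gli1 was 0.84 over 16 PF/F types and 0.82 over 15 PTB types (Spearman's rho 0.65 and 0.75). The r of Ptch1 with Gli2 was 0.94 and 0.65, with Gli3 0.68 and -0.05, and with Hhip 0.49 and 0.53. Types share libraries, ambient RNA and depth, so these are descriptions without a test.

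Genes with the pattern most like a member were picked by the same r among genes reaching 10 CPM in a type. For Ihh in the PTB (13125 genes, 15 types) these were Psmd8 (0.93), Comp (0.93), Hras (0.92), Nhej1 (0.92) and Snorc (0.92), all highest in matured chondrocytes. For Shh in PF/F (15730 genes, 16 types) they were Krt12 (0.89), 4930538E20Rik (0.88), 4930593C16Rik (0.88), Entpd2 (0.88) and Arntl2 (0.83), of which Arntl2 was highest in pericytes and the others in Purkinje cells. The 16 types include pericytes, whose Shh level rests on 1 UMI in 74 nuclei, so the place of Arntl2 is uncertain. Gli1 in PF/F was followed by Taf6 (0.84), Mdc1 (0.84), Ptch1 itself (0.84), Gm45235 (0.84) and Irs1 (0.83), all highest in GNPs. Gli1 in the PTB was followed by Sgcb (0.87), Usp22 (0.86), Dazap1 (0.86), Shank1 (0.86) and Twist1 (0.84).

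Hhip in PF/F was followed by Nphs1 (0.89), Kirrel2 (0.87), Angpt1 (0.86), Ptx3 (0.86) and Rgma (0.85), of which the first 4 were highest in GABA interneuron progenitors and Rgma in astroglia. In the PTB it was followed by Frmpd3 (0.88), Sema3d (0.87), Shank1 (0.83), Hdac9 (0.77) and Clec11a (0.77), and Sema3d reached 3707 CPM in CP2.

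Differences between cell types were tested with edgeR's quasi-likelihood test on summed counts with the library as a block, and a gene was called at an adjusted p under 0.05 and over 1.5-fold. The cell types had been drawn from these same nuclei, so the calls are not independent of the annotation. Against GNPs, Purkinje cells were higher in Shh by 5.45 on the log2 scale (SE 0.26) and lower in 5 other members. The log2 differences of those were -2.35 (SE 0.11) for Ptch1, -2.38 (SE 0.12) for Smo, -4.42 (SE 0.21) for Gli1, -4.01 (SE 0.11) for Gli2 and -3.66 (SE 0.16) for Gli3. Among all genes tested, 28.2% were called higher and 28.5% lower, so calls were common in this contrast. Shh held 1 to 7 UMIs per library in GNPs and Gli1 averaged 1.54 CPM in Purkinje cells, so both passed the filter on low counts only through the type where they were high, and their differences are descriptions. Hhip was not called (-0.04, SE 0.25).

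GNPs were higher than differentiated granule neurons in all 6 members tested, where 20.1% of all genes were called higher and 20.9% lower. The log2 differences were 1.17 (SE 0.05) for Ptch1, 1.55 (SE 0.06) for Smo, 3.12 (SE 0.10) for Gli1, 2.95 (SE 0.06) for Gli2, 3.63 (SE 0.09) for Gli3 and 0.66 (SE 0.16) for Hhip. The Hhip call was lost among nuclei with at least 2000 genes (0.30, adjusted p 0.275) and without the second Tbx1+/- library (0.54). Astroglia were likewise higher than differentiated granule neurons in all 6 (23.9% of all genes higher, 17.3% lower), from 0.77 (SE 0.04) for Ptch1 to 4.85 (SE 0.10) for Gli3, with Hhip at 2.91 (SE 0.12) and Gli1 at 2.05 (SE 0.12).

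In the PTB, matured chondrocytes were set against CPs (CP1 to CP6 summed). Ihh was higher by 4.17 on the log2 scale (SE 0.32, adjusted p 1.09e-33) and Ptch1 by 0.92 (SE 0.15), where 9.36% of all genes were called higher (1480 of 15806, and 706 of 15169 among nuclei with at least 2000 genes). Gli3 (-0.76, SE 0.15) and Gli2 (-0.59, SE 0.16) were lower, where 15.1% of all genes were. The Gli2 value lies at the fold threshold and its call was lost without the library block (adjusted p 0.0774), with RLE factors (-0.57) and without the first WT or the first Tbx1+/- library. The Gli3 call was lost among nuclei with at least 2000 genes (-0.53). Hhip (-0.55, SE 0.15) was not called, but was called with no filter on low counts (-0.65) and without the second WT library (-0.73). Gli1 was not called (0.37, SE 0.24, adjusted p 0.244) and had the opposite sign among those nuclei (-0.86).

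The hypertrophic chondrocyte/osteoblast class was lower than CPs in Hhip (log2 difference -1.75, SE 0.11), the single member of 8 tested that was called, where 15.0% of all genes were called lower and 9.50% higher. Gli1 was at -0.57 (SE 0.08), just inside the fold threshold, and Ptch1 at 0.43 (SE 0.04). Gli1 was called with no filter on low counts (-0.61), among nuclei with at least 2000 genes (-0.59) and without the first WT library (-0.63). Dhh was called with no filter (-0.89) and without the 8% of nuclei with most UMIs (-1.01), and Ihh without the first WT library (-0.95). Dhh and Ihh averaged only 0.951 and 1.94 CPM in the hypertrophic class and did not pass the filter on low counts in that class's genotype fit. Their differences from CPs, where both were higher, are descriptions. Osteoblasts were higher than CPs in Ihh (0.64, SE 0.22, adjusted p 0.0180) and lower in Gli3 (-0.75, SE 0.04), against 10.8% of all genes higher and 19.1% lower. The Ihh call was lost without the library block (0.62, adjusted p 0.158), with DESeq2 (0.68, adjusted p 0.0683), without the first (0.60) or second (0.56) WT library and without the second Tbx1+/- library (0.50), while the difference stayed between 0.50 and 0.68. Ptch1 in osteoblasts, at 0.58 (SE 0.05), lay at the fold threshold and was called with RLE factors (0.60), with DESeq2 (0.60) and without any single library but the first WT library (0.59 to 0.60). Hhip in osteoblasts was called without the 8% of nuclei with most UMIs (-0.65) and without the first WT library (-0.59). CT, with CT1 to CT4 summed, was lower than CPs in Hhip (-0.67, SE 0.06), where 7.23% of all genes were called lower and 6.84% higher. The Hhip differences hold against CPs as summed, not against each CP type. Hhip averaged 598 CPM in CP2 and 322 CPM in CP1, but 51.2 CPM in CP5 and 67.5 CPM in CP6. These last levels were below the 87.6 CPM of the hypertrophic class and the 187 CPM of CT.

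**Figure D4:**
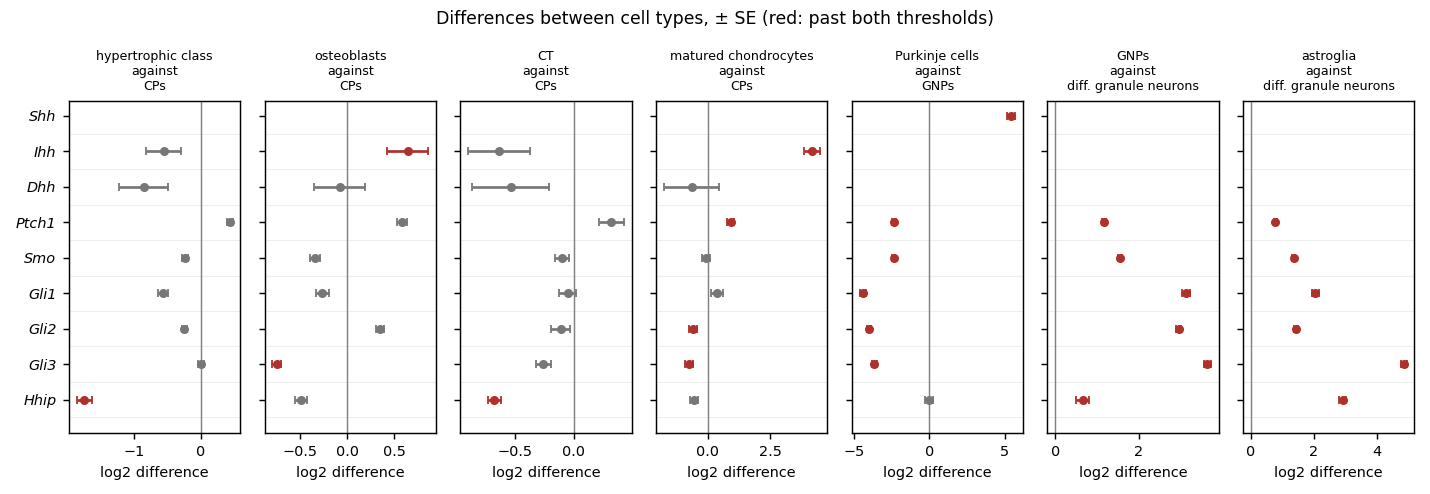
Log2 difference ± SE of each member (rows) in the 7 cell type contrasts (panels, each with its own horizontal scale), first type minus second, with members past both thresholds in red and members filtered out for low counts left blank. Shh stands at 5.45 in Purkinje cells against GNPs and Ihh at 4.17 in matured chondrocytes against CPs.

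A list of 37 further pathway genes was counted in the same fits. Between GNPs and differentiated granule neurons, 13 of 34 tested were called higher and 4 lower, where 20.1% of all genes were higher and 20.9% lower. Examples of the higher genes in GNPs were the coreceptors Boc (1.71, SE 0.05) and Gas1 (1.89, SE 0.09), the ciliary regulator Kif7 (2.03, SE 0.16) and the reported targets Mycn (1.97, SE 0.07), Ccnd1 (1.44, SE 0.07) and Sfrp1 (2.32, SE 0.05). The coreceptor Cdon (-2.99, SE 0.09) and the ligand release protein gene Scube1 (-2.68, SE 0.15) were among the lower. The median log2 difference of the list was 0.0319, against 0.0475 over all genes tested.

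Purkinje cells were higher than GNPs in 9 of 33 pathway genes and lower in 12, and 28.2% of all genes were higher and 28.5% lower. Cdon (3.53, SE 0.11) and Scube2 (3.12, SE 0.21), which helps release lipid-bound ligand, were among the higher, and Gas1 (-2.57, SE 0.21) and Boc (-1.29, SE 0.07) among the lower. Astroglia against differentiated granule neurons had 11 of 34 higher and 4 lower (23.9% and 17.3% of all genes). Scube2 was at 250.4 ± 12.0 CPM in GABA interneuron progenitors and 187 ± 12.0 CPM in astroglia.

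In the PTB, matured chondrocytes were higher than CPs in 4 of 35 pathway genes and lower in 2, where 9.36% of all genes were higher and 15.1% lower. Pth1r, the receptor of parathyroid hormone-related protein, was higher by 2.58 (SE 0.16) and reached 1387 ± 223 CPM, and Scube1 was higher by 1.76 (SE 0.16). The hypertrophic chondrocyte/osteoblast class had 0 of 35 higher and 10 lower (9.50% and 15.0% of all genes), the lower including Pthlh (-2.12, SE 0.27), which encodes that hormone-related protein, Scube2 (-2.56, SE 0.13), Cdon (-1.33, SE 0.08) and Boc (-1.13, SE 0.04). Osteoblasts had 3 of 36 higher, among them Pth1r (1.59, SE 0.05) and the ligand transporter Disp1 (1.27, SE 0.04), and 13 lower, Pthlh among them (-1.52, SE 0.24), where 10.8% of all genes were higher and 19.1% lower. The list's median log2 difference was -0.23 in the hypertrophic class and -0.30 in osteoblasts, against medians of -0.00495 and -0.00760 over all genes. CT had 4 of 35 higher, among them Cdon (1.09, SE 0.18), and 3 lower, against 6.84% and 7.23% of all genes.

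Whether the genotype moved these genes was tested for all nuclei of each tissue and in 8 classes of nuclei, with WT and Tbx1+/- at 2 libraries each, by edgeR's quasi-likelihood test on counts summed per library. No member was called in any of the 69 tests, with 0 at an unadjusted p under 0.05, a lowest unadjusted p of 0.0914 and every adjusted p at 1.00. DESeq2 also gave 0 calls and 0 at an unadjusted p under 0.05. Over all genes, 0% were called in 9 of the 10 fits and 0.00778% in Purkinje cells. Of 12851 to 20756 genes tested per fit, 99 to 273 were at an unadjusted p under 0.05. That is below the share of 0.05 expected without any difference, so these fits were conservative. With a replicate block in edgeR's test, 449 to 1043 genes per fit and 2 of the 69 member tests were under 0.05, and 0 members were called. The single gene called, Ttr, was named after its values were seen, and was at 26.3 and 25.9 CPM in WT and 89.4 and 111 CPM in Tbx1+/- Purkinje libraries (1.97, SE 0.22, adjusted p 0.0256). Its call was lost without the 8% of nuclei with most UMIs, where 0 genes were called. The counts were not corrected for ambient RNA, and the part of ambient RNA in the Ttr level was not tested.

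Values are given for each member in the tested class with its highest level. Matured chondrocytes and GABA interneuron progenitors were not tested between genotypes on their own, and CT4 was tested only as part of CT. Shh in Purkinje cells differed by 0.14 (SE 0.30, log2, Tbx1+/- minus WT), on the levels given above. Ihh in osteoblasts was at 5.92 and 3.00 CPM in WT and 2.74 and 4.43 CPM in Tbx1+/- (-0.33, SE 0.46), and Dhh in CPs differed by 0.07 (SE 0.53). Gli1 in GNPs was at 43.4 and 37.8 CPM in WT and 44.8 and 42.0 CPM in Tbx1+/- (0.11, SE 0.15), and the genotypes overlapped. Gli1 in CPs was at 27.6 and 25.04 CPM in WT and 28.5 and 28.2 CPM in Tbx1+/- (0.11, SE 0.13), and Ptch1 in the hypertrophic class at 360 and 366 CPM in WT and 357 and 354 CPM in Tbx1+/- (-0.04, SE 0.11). In these last 2 cases the genotypes did not overlap, but the gaps were under 1 CPM for Gli1 and under 3 CPM for Ptch1. With 2 libraries against 2, full separation has a probability of 0.333 for a gene without any difference. The share of all genes that separated is not given here, so nothing is drawn from these cases.

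The remaining members differed by -0.05 to 0.13 on the log2 scale. Ptch1 (0.09, SE 0.18), Smo (0.13, SE 0.17) and Gli2 (0.11, SE 0.19) were measured in GNPs, Gli3 (0.07, SE 0.21) and Hhip (0.12, SE 0.23) in astroglia, Smo (-0.05, SE 0.16) and Hhip (0.10, SE 0.16) in CPs, Gli2 (0.05, SE 0.12) in osteoblasts and Gli3 (0.05, SE 0.13) in the hypertrophic class. Shh in the PTB and Ihh and Dhh in PF/F did not pass the filter on low counts in the tested class with their highest level. Larger estimates stood in classes where the member was not highest, in both tissues. In PF/F, Gli3 (0.60, SE 0.53) and Smo (0.46, SE 0.29) in Purkinje cells and Hhip in GNPs (0.41, SE 0.27) were among them. Ptch1 in CT, the class that holds CT4, was at 261 and 320 CPM in WT and 290 and 502 CPM in Tbx1+/- (0.45, SE 0.30), and the genotypes overlapped. Hhip in the hypertrophic class was at 117 and 80.1 CPM in WT and 82.6 and 70.7 CPM in Tbx1+/- (-0.38, SE 0.20), also overlapping, and had the lowest unadjusted p given above. Over all classes the log2 differences ran from -0.38 to 0.60, and with 2 libraries a group these errors leave moderate differences unresolved. None of the 37 pathway genes was called in any genotype fit. The difference of the genotype effects between tissues was called for 0 of 9 members and 0% of all 22148 genes tested (199 at an unadjusted p under 0.05, 0 of them members), and the members' estimates ran from -0.38 to 0.66.

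**Figure D5:**
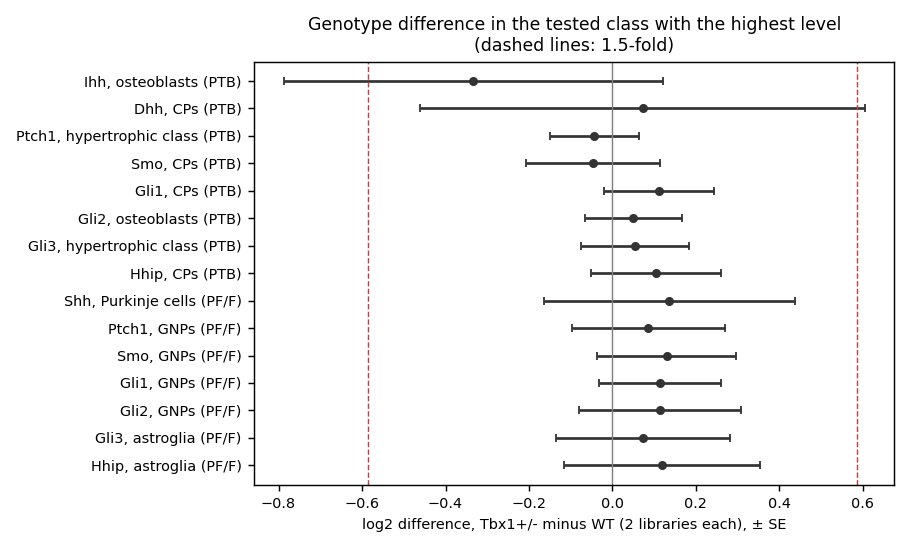
Log2 difference between genotypes (Tbx1+/- minus WT, 2 libraries each) with its SE (bars) for each member in the tested class with its highest level, with dashed lines at 1.5-fold. Every estimate lies within the dashed lines, and Ihh (SE 0.46) and Dhh (SE 0.53) have the widest bars.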

How the data were processed

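Nuclei of the PTB and PF/F from pools of 5 mice at postnatal day 5.5 were sequenced with a droplet 3′ single-nucleus method. The deposited tables hold raw UMI counts per gene and barcode, made by the authors with Cell Ranger 7.0.0 and the mm10 build with intronic reads included, with no correction for ambient RNA in these tables. Cell types came from the deposited annotation, for which the authors removed low-quality nuclei, clustered the rest and assigned names by label transfer and by hand. A doublet step is not given in the sources used here and none was added. No annotated nuclei were removed, and 0 value columns lacked a sample.

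Counts were summed per library and type, and CPM was computed over the annotated nuclei of that type. Classes were tested with edgeR 4.0.16 in R 4.3.3 (filterByExpr, TMM factors, quasi-likelihood test, Benjamini-Hochberg adjustment over all genes tested), and calls required an adjusted p under 0.05 and over 1.5-fold. Genotypes were compared at 2 libraries each, and cell types were compared within libraries. Scripts were tested on simulated counts. Alternatives were DESeq2 1.42.0, RLE factors, no filter on low counts, other limits on nuclei, the replicate block and leaving out each library. The labels do not tie replicate numbers to the study's batches, so libraries were not treated as paired. Because libraries were pools, the genotype p-values measure the spread between pools. The cell type p-values, with the library as a block, measure how differences within a library vary over the pools. Intervals and shares of nuclei cover counting error only.

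The 9 genes were given by name, the 5 genes most like a member were those with the highest Pearson's r, and the pathway and marker lists were written by hand. All were chosen with earlier results of these data known. Barcodes without annotation were kept with at least 1000 genes and within 3 median absolute deviations for UMIs, genes and mitochondrial share, and were assigned to the marker list with the most UMIs (at least 3, without ties). Promoter sequences came from RefSeq, leaving out chromosome 18. Results for 1 gene of the pathway list are not reported here.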

Additional observations from a re-analysis of the deposited data

Results flagged for a closer look

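Barcodes that passed limits on genes and mitochondrial share but carried no annotation were outside the comparisons above, and pooled Dhh and Shh levels in some groups of them, formed by marker lists, exceeded the mean level of every annotated PTB type. Dhh was at 75.1 CPM (287 UMIs in 212 of 806 barcodes, exact Poisson interval 66.6 to 84.3) in PTB barcodes with Schwann cell markers, Schwann cells being a known source of Dhh. The level was 77.2 and 85.3 CPM in the WT libraries and 66.2 and 76.5 CPM in the Tbx1+/- libraries, so it was high in each library. The highest annotated type, CT2, averaged 2.32 ± 1.86 CPM (SD, n = 4) and stood up to 4.48 CPM above CP6 in a library.

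Dhh was also at 7.91 CPM in barcodes with connective tissue markers (256 UMIs, 8063 barcodes, interval 6.97 to 8.94), at 7.18 CPM in those with erythroid markers (5 UMIs, 134 barcodes, interval 2.33 to 16.8) and at 4.06 CPM in those with osteoblast markers (81 UMIs, 3597 barcodes, interval 3.22 to 5.04). It was likewise at 5.20 CPM in barcodes that fell to no marker list (44 UMIs, 2190 barcodes, interval 3.78 to 6.98). Pooled Dhh above the CT2 mean was thus not limited to the groups named. Over libraries Dhh ran from 2.20 to 5.62 CPM with osteoblast markers and from 2.97 to 8.69 CPM with no marker list. Both ranges overlapped that of CT2, and the intervals cover counting error only. Groups with endothelial, hypertrophic, osteoclast and meningeal markers were at 3.799, 3.76, 3.90 and 4.61 CPM on 12, 13, 6 and 3 UMIs, with intervals that include the 2.32 CPM of CT2. So do those of the oligodendrocyte, skeletal muscle, chondrocyte and Purkinje marker groups, at 6.06, 3.33, 2.46 and 2.34 CPM on 3, 3, 7 and 7 UMIs. Groups with immune, neuron, astroglia, epithelial and granule progenitor markers were below 2.32 CPM. Shh was at 3.18 CPM in PTB barcodes with neuron markers (27 UMIs in 23 of 906 barcodes, interval 2.09 to 4.62). Its level was 7.92 CPM in the first WT library and 1.83 to 3.14 CPM in the other libraries. The highest annotated type, CT1, averaged 1.43 ± 1.91 CPM on 8 UMIs and reached 4.25 CPM in 1 library on 2 UMIs, so the 2 ranges overlapped over libraries. The groups were formed from marker counts. They may hold low-quality nuclei, doublets or cell types that the PTB annotation leaves out, which was not tested.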

How the results depend on the processing

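No member was called between genotypes under any alternative run. Same-numbered libraries deviated together (correlation 0.469 in the PTB and 0.538 in PF/F), but the labels give no pairing. The replicate block moved the calls to 24 genes in CT and 3 each in GNPs, astroglia and Purkinje cells. It put Ptch1 in CT and Hhip in the hypertrophic class at an unadjusted p under 0.05 (lowest adjusted p of any member 0.457). The fit with no filter on low counts did so too (lowest adjusted p 0.997). Among nuclei with at least 2000 genes, Hhip in GNPs was under 0.05 (unadjusted p 0.0364 in edgeR's quasi-likelihood test). This list covers only the fits that keep all libraries. Fits without a library leave a lone library in a genotype, and member p-values of those fits are not given. With no filter on low counts 1 gene was called in CT, 17 in the hypertrophic class and 3 in astroglia. DESeq2 called 1 in astroglia, and 0 were called in Purkinje cells without the 8% of nuclei with most UMIs. Leaving out each library in turn gave 0 to 2 genes in the hypertrophic class, 0 to 33 in osteoblasts (33 without the second WT PTB library), 1 to 2 in GNPs, and, with the highest counts all without the first WT PF/F library, 0 to 39 in differentiated granule neurons, 1 to 38 in astroglia and 1 to 19 in Purkinje cells. A lone library is then assumed to vary like its counterparts.

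Matured chondrocytes against CPs had 3862 genes called, and 2299 among nuclei with at least 2000 genes. The Purkinje share of Shh UMIs was 84.8% there and 39.7% without the 8% of nuclei with most UMIs. The sign changed for Gli3 in the hypertrophic class against CPs (-0.0400 with no filter and -0.0361 without those nuclei), Gli1 in CT against CPs (0.0126 without them), Gli1 in matured chondrocytes (-0.86 among nuclei with at least 2000 genes) and Hhip in Purkinje cells against GNPs (0.0572 without those nuclei). The causes were not tested.

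Leaving out a library turned the sign of these log2 differences between genotypes, none of them called: Ihh in osteoblasts (-0.76 to 0.23), Dhh in CPs (-0.45 to 1.08), Smo in CPs (-0.21 to 0.13), Gli2 in osteoblasts (-0.0544 to 0.14), Gli3 in the hypertrophic class (-0.0603 to 0.18), Hhip in CPs (-0.11 to 0.27), Shh in Purkinje cells (-0.27 to 0.54), Ptch1 in GNPs (-0.0161 to 0.18), Smo in GNPs (-0.00369 to 0.27), Gli3 in astroglia (-0.14 to 0.32) and Hhip in astroglia (-0.19 to 0.47). It did so between cell types for Gli3 in the hypertrophic class (-0.0270 to 0.0174), Dhh in osteoblasts (-0.34 to 0.10), Smo (-0.19 to 0.00539) and Gli1 (-0.0483 to 0.50) in matured chondrocytes, and Hhip in Purkinje cells (-0.18 to 0.12). Low counts limit the ligands, with 10 to 521 UMIs a tissue in annotated nuclei. For Dhh in the PTB the annotation limits the count too. Annotated nuclei held 230 Dhh UMIs, and barcodes without annotation that carried Schwann cell markers held 287.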

Other observations

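Barcodes without annotation in PF/F that carried Purkinje cell markers had Shh at 18.2 CPM (24 UMIs in 22 of 141 barcodes, exact Poisson interval 11.7 to 27.1), beside 20.6 CPM in annotated Purkinje cells. By library Shh in these barcodes was at 20.5 and 16.3 CPM in WT and 27.3 and 4.32 CPM in Tbx1+/-. The second Tbx1+/- library held 1 Shh UMI in 17 such barcodes. Barcodes without annotation in the PTB that carried chondrocyte markers had Ihh at 6.32 CPM (18 UMIs, 455 barcodes, interval 3.75 to 9.99), and 14 of the 18 UMIs came from the first WT library.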
